A study of Mus musculus with 2 samples.

Results

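The genes described here are 10 genes of the smooth muscle contractile apparatus, Acta2, Tagln, Myh11, Cnn1, Myl9, Tpm1, Tpm2, Actg2, Actc1 and Lmod1. They were chosen by symbol, all 10 were found once each among the 27998 genes of both files, and the rule used no threshold on a measured value. Smooth muscle shortens when myosin filaments pull on actin filaments. Calcium starts this through phosphorylation of the myosin light chain, and tropomyosin, calponin and leiomodin shape the actin filament. In the lung these genes mark the muscle of airways and vessels, pericytes (the mural cells of capillaries) and fibroblasts that turn contractile hold them at varied levels, and endothelial cells are not known for them as a set.

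The data are UMI counts (unique molecular identifiers, 1 per captured transcript end) of single lung cells, with 1 library labelled WT and 1 labelled KO. The mice model hereditary hemorrhagic telangiectasia type 2, an inherited disorder of blood vessels. The mice were C57BL/6J and 10 to 12 weeks old. Dispase (1 hour) and DNase (30 minutes) freed the cells. A sort then kept those with VE-cadherin, an endothelial junction protein, and without CD45, a leukocyte protein. The labels give neither the deleted gene, the promoter or agent that brings about the deletion, nor the number of animals pooled. Each group was 1 library, so nothing was tested, no difference has a replicate check, and the intervals (95%, exact) cover counting error only. The KO library held 1314 kept cells with a median of 8654 UMIs and the WT library 2708 with a median of 5423. The libraries shared 12 barcodes, 6 of them among kept cells. Acvrl1, which encodes the receptor ALK1 and is the gene known for this disease type, stood in general capillary-like cells at 1306 CPM (WT) and 1265 CPM (KO), where CPM is UMIs per 1000000 UMIs of the cells concerned, and in the KO cells led by Igfbp3, described last, at 431 CPM (384 to 482), and a 3' count does not check a deletion elsewhere in the gene. Of the smooth muscle-like cells described next, 75 of 78 in WT had Xist alone, and in KO 33 of 53 had Y-linked transcripts alone and 10 Xist alone, so the libraries also differed in the sex of their cells.

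Cells labelled as lung endothelium were sorted into classes from marker genes, with the 10 genes and all other contractile genes left out of the clustering and of the naming. The endothelial classes held 1477 WT and 473 KO cells. The smooth muscle-like class held 78 WT and 53 KO cells, the pericyte-like class 23 and 22, the alveolar fibroblast-like class 56 and 34, the adventitial fibroblast-like class 69 and 50, and a small ductal myofibroblast-like class 10 and 5. The alveolar type 2-like class (796 and 536), epithelial cells that should lack the muscle genes other than Tpm1, served as a reference for free RNA. Free RNA was widespread: all 78 WT and 53 KO smooth muscle-like cells had a UMI of Sftpc, Sftpb or Sftpa1, surfactant genes of type 2 cells. The smooth muscle-like class had UMIs of 17 of 18 smooth muscle markers in WT (Nrip2 was at 0) and of 18 in KO. They summed to 6885 and 5556 CPM. The count alone does not set the class apart. Alveolar type 2-like cells had UMIs of 16 in both libraries, at 30.6 and 27.3 CPM. Pericyte-like cells held more of this list, at 13952 and 12424 CPM. All 14 pericyte markers had UMIs in the smooth muscle-like class, at 4456 and 3266 CPM, against 31798 and 23892 CPM in pericyte-like cells. Both lists hold Notch3, Rgs5, Pdgfrb, Gucy1a3 and Gucy1b3. In the smooth muscle-like class endothelial markers summed to 416 and 202 CPM, against 18240 and 20338 CPM in general capillary-like cells. Of 9 leukocyte markers, 0 and 1 had a UMI in the class. Markers of heart and skeletal muscle summed to 48.0 and 90.1 CPM in the class, with UMIs of 7 of 11 in WT and 5 in KO. Nppa, Tnni3, Actn2 and Acta1 were at 0 in both libraries. Tnnt2, of the same list, was not. In the sub-clusters described below it had 24 UMIs (69.3 CPM) in sub-cluster 2 and 17 UMIs (259 CPM) in sub-cluster 5. It had 0, 7 and 9 UMIs in sub-clusters 1, 3 and 4.

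Many contractile genes are known to be switched on by serum response factor (SRF), which binds the CArG box, with its partner myocardin. The CArG box is a CC, 6 bases that are each A or T, and a GG, and it reads the same on both strands. RefSeq promoters (build GRCm38.p6) matched 7 of the 10 genes, those of Tagln, Myh11 and Actg2 not among them. In the 250 bases before the annotated start, an exact box was present in 2 of these 7 (Myl9 and Actc1), against 1.47% of 32851 promoters of the same length. A box with 1 other base among the 6 was counted too, and Acta2 then joined them, so that 3 of 7 held either form, against 8.59% of all promoters. Cnn1, Tpm1, Tpm2 and Lmod1 held neither in this window. The 3 promoters with boxes are shown since they belong to the most abundant gene, Acta2, a gene that stood out for its spread among cells, Actc1, and the light chain Myl9. Capitals mark the boxes, and the strand is that of the gene. The starts are those of the RefSeq table. GENCODE places the outer end of both actin genes further out, so that the Actc1 stretch lies wholly and the Acta2 stretch largely within the GENCODE gene.
Acta2: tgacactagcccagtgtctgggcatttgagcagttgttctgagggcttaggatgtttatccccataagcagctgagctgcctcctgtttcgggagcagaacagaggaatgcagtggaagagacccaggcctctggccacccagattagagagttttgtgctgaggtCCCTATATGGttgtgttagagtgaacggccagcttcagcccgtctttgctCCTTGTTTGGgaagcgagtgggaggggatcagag
Myl9: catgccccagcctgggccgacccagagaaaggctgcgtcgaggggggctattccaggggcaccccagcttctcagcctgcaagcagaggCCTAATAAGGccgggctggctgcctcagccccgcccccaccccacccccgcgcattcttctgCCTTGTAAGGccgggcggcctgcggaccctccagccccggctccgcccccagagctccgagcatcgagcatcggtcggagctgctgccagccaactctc
Actc1: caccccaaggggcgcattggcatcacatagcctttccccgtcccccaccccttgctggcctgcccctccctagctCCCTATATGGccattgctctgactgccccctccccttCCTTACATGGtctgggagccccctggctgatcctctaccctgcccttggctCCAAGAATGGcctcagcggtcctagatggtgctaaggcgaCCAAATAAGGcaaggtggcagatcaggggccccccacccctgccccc
The Acta2 stretch lies at chr19:34255374-34255623 on the minus strand, with boxes CCCTATATGG at 84 to 75 and CCTTGTTTGG at 34 to 25 bases before the start, each with 1 other base. The Myl9 stretch lies at chr2:156775214-156775463 on the plus strand, with the exact box CCTAATAAGG at 161 to 152 bases and CCTTGTAAGG at 99 to 90 bases before the start. The Actc1 stretch lies at chr2:114052876-114053125 on the minus strand and holds 4 boxes, of which the nearest, CCAAATAAGG at 47 to 38 bases before the start, is exact. The Actc1 box at 175 to 166 bases has the same letters as the far box of Acta2.

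Myocd, which encodes myocardin, had 59 UMIs in WT (101 CPM, 76.9 to 130.3) and 58 in KO (107 CPM, 80.9 to 137.8) smooth muscle-like cells. It had 0 UMIs in pericyte-like cells of both libraries, with upper interval limits of 37.0 CPM in WT and 19.9 CPM in KO. Srf stood at 46.2 and 34.9 CPM in smooth muscle-like cells and at 32.7 and 31.5 CPM in general capillary-like cells.

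In smooth muscle-like cells the 10 genes together made up 34249 CPM (33776 to 34727) of the WT and 44145 CPM (43588 to 44707) of the KO class. This was 216 and 268 times the summed level in general capillary-like cells and 97.6 and 119 times that in alveolar type 2-like cells of the same library. A 3' library counts transcript ends, so levels of different genes can be compared without a correction for length. They are given here in the order of the genes' roles, with positions from GENCODE M21 (GRCm38).

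Of the 3 actins, Acta2 (ENSMUSG00000035783, chromosome 19, 34241090 to 34255590, minus strand) is the smooth muscle alpha actin. It had 6635 UMIs in WT and 8242 in KO, or 11364 CPM (11092 to 11641) and 15148 CPM (14823 to 15479), the highest of the 10 in both libraries. Actg2 (ENSMUSG00000059430, chromosome 6, 83512905 to 83536265, minus strand), the gamma actin best known from the gut wall, stood at 805 CPM (734 to 881) and 1557 CPM (1454 to 1665), WT first here and from here on. Actc1 (ENSMUSG00000068614, chromosome 2, 114047282 to 114053548, minus strand), the heart alpha actin, stood at 1028 CPM (947 to 1113) and 639.6 CPM (574 to 710.4). Actc1 was thus above Actg2 in WT and below it in KO. The coding sequences of these actins are near-identical, and reads that fall there could have been split between them. A gene of the other strand, A530058N18Rik, overlaps Actc1.

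Among the myosin genes, Myh11 (ENSMUSG00000018830, chromosome 16, 14194535 to 14291372, minus strand), the smooth muscle heavy chain, stood at 2634 CPM (2504 to 2769) and 2417 CPM (2288 to 2551). Myl9 (ENSMUSG00000067818, chromosome 2, 156775420 to 156781658, plus strand), the regulatory light chain, stood at 2353 CPM (2230 to 2481) and 2606 CPM (2472 to 2745). Their intervals were apart in WT, with Myh11 above, and overlapped in KO.

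The other 5 genes encode proteins that lie along the actin filament. Tagln (ENSMUSG00000032085, chromosome 9, 45929619 to 45936058, minus strand), transgelin or SM22, an actin cross-linker, stood at 9062 and 12797 CPM, second in both libraries. It overlaps Pcsk7 and Gm48529 on the other strand. Tpm2 (ENSMUSG00000028464, chromosome 4, 43514711 to 43523765, minus strand), beta tropomyosin, followed at 3535 CPM (3384 to 3691) and 5219.7 CPM (5029 to 5415). Tpm1 (ENSMUSG00000032366, chromosome 9, 67022590 to 67049406, minus strand), alpha tropomyosin, stood at 1982 CPM (1869 to 2099) and 2231 CPM (2107 to 2360.4). Cnn1 (ENSMUSG00000001349, chromosome 9, 22099216 to 22109630, plus strand), calponin, which damps the myosin motor, stood at 673 CPM (608 to 743) and 836 CPM (761 to 917). Lmod1 (ENSMUSG00000048096, chromosome 1, 135324807 to 135368065, plus strand), leiomodin, which starts new actin filaments, stood at 813.5 CPM (742 to 890.1) and 693 CPM (625 to 766). Lmod1 could not be told from Actg2 and Cnn1 in WT, nor from Cnn1 and Actc1 in KO.

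**Figure D1:**
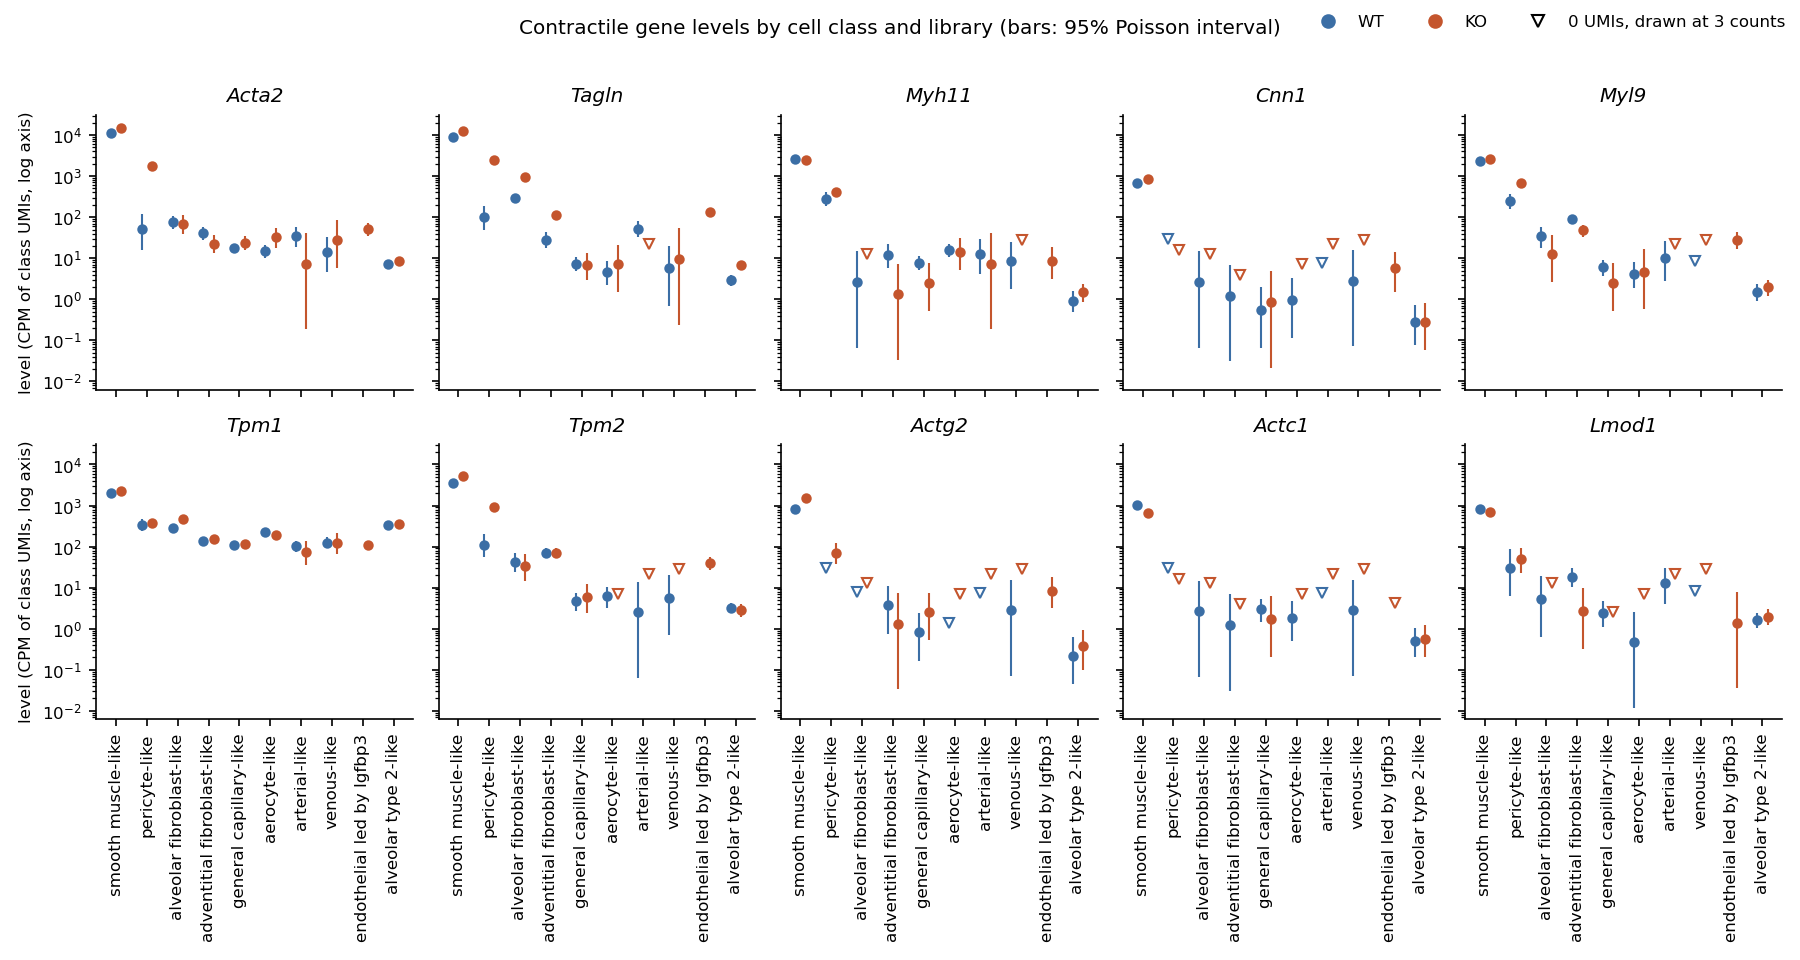
Level of each of the 10 genes (CPM of the class's UMIs, log axis) in 10 cell classes of the WT and KO libraries, as points with 95% Poisson intervals; open triangles mark 0 UMIs, drawn at 3 counts, and classes under 5 cells are left out. Every gene is highest in smooth muscle-like cells; Tpm1 is the one gene above 70 CPM in all classes drawn.

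Below the muscle cells the genes separated by class. The summed level of the 10 genes was 1164 and 6677 CPM in pericyte-like cells, 751 and 1545 CPM in alveolar fibroblast-like cells, and 404 and 407 CPM in adventitial fibroblast-like cells. In pericyte-like cells it was 892 and 1712 CPM without the 5 highest cells of each library. A looser gate by pericyte markers alone gave 2004 and 3062 CPM, but for largely other cells. Of its 17 WT and 9 KO cells, 7 and 4 were in the pericyte-like class. The summed level was 158 and 164 CPM in general capillary-like cells. Tpm1 made up most of it in general capillary-like cells, with 108 and 118 CPM, in aerocyte-like cells, and in alveolar type 2-like cells, with 333 and 347 CPM, where 97.9% and 98.7% of cells had a Tpm1 UMI. Tpm1 is also made by non-muscle cells from other promoters and exons of the same gene, which these counts do not separate. At the other end, Cnn1 and Actc1 were near 0 in the other classes, except for 4 and 11 UMIs in single WT ductal myofibroblast-like cells. Each had 0 UMIs in 23 WT and 22 KO pericyte-like cells, with upper interval limits of 37.0 and 19.9 CPM. Each was under 3 CPM in general capillary-like cells. The ductal myofibroblast-like class, at 3716 and 7423 CPM, stood between muscle and pericytes, but 1 KO cell held 102 of its 107 Acta2 UMIs.

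Within the smooth muscle-like class, cells differed widely. The 10 genes took from 0.138% to 8.12% of a WT cell's UMIs, with a median of 2.21%, and from 0.171% to 10.3% of a KO cell's, with a median of 2.27%. Between 3 and 10 of the genes were detected per WT cell (median 8) and between 5 and 10 per KO cell (median 9). All 10 were detected in 30 WT (38.5%) and 20 KO (37.7%) cells. A member share under 1% was seen in 27 WT and 13 KO cells, and one over 5% in 17 and 17, so the medians of the libraries were close while their sums were not. A single KO cell, in the sub-cluster numbered 3 in the next paragraph, held 3501 of the 24019 member UMIs of the KO class, and the 5 highest cells 38.5%, against 20.7% in WT. Across the 131 cells the log levels of the members correlated positively in all 45 pairs, with Pearson's r from 0.44 (Tpm1 and Lmod1) to 0.88 (Acta2 and Tagln), a description of cells that share 2 libraries and vary in depth.

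Clustering the 131 cells again, without any contractile gene, gave 5 sub-clusters in which the contractile genes nonetheless differed. Sub-cluster 1 (32 WT and 15 KO cells), led by Col8a1, Lipg and Higd1b, was the low one: Acta2 stood at 3045 CPM and Actc1 at 0 UMIs, and Cnn1, at 21.9 CPM, was detected in 1 WT and 1 KO cell. It kept Tagln (3894 CPM) and Tpm1 (1163 CPM), and it was highest in the pericyte markers Higd1b (390.2 CPM) and Cox4i2 (1032 CPM) among the 5. The pericyte marker Cspg4 went the other way. It stood at 21.9 CPM in sub-cluster 1, against 127, 46.5 and 114 CPM in sub-clusters 2, 3 and 4, and at 0 UMIs in sub-cluster 5. Sub-cluster 2 (23 and 12 cells), led by Abra, Sncg and Kcna5, held Actc1 at 2034 CPM, in 20 of 23 WT and 8 of 12 KO cells. Sub-cluster 4 (11 and 8 cells), led by Ncam1 and Mt1, had the highest Acta2 (19670.2 CPM), Myh11 (4118 CPM) and Cnn1 (1414 CPM), with Actc1 at 1044 CPM. Sub-cluster 3 (4 WT and 17 KO cells), led by genes that include Igfbp2, Timp1 and Fn1, paired a high Acta2 (18049 CPM), Tagln (15348 CPM) and Actg2 (2100.2 CPM) with a low Actc1 (101 CPM). Sub-cluster 5 (8 and 1 cells), led by the fibroblast genes Dcn and Col14a1, was intermediate, with Acta2 at 9817 CPM. Sub-clusters 2 and 4 together held 94.5% of all Actc1 UMIs of the class, but 51.2% of Actg2 and 58.7% of Acta2 UMIs.

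**Figure D2:**
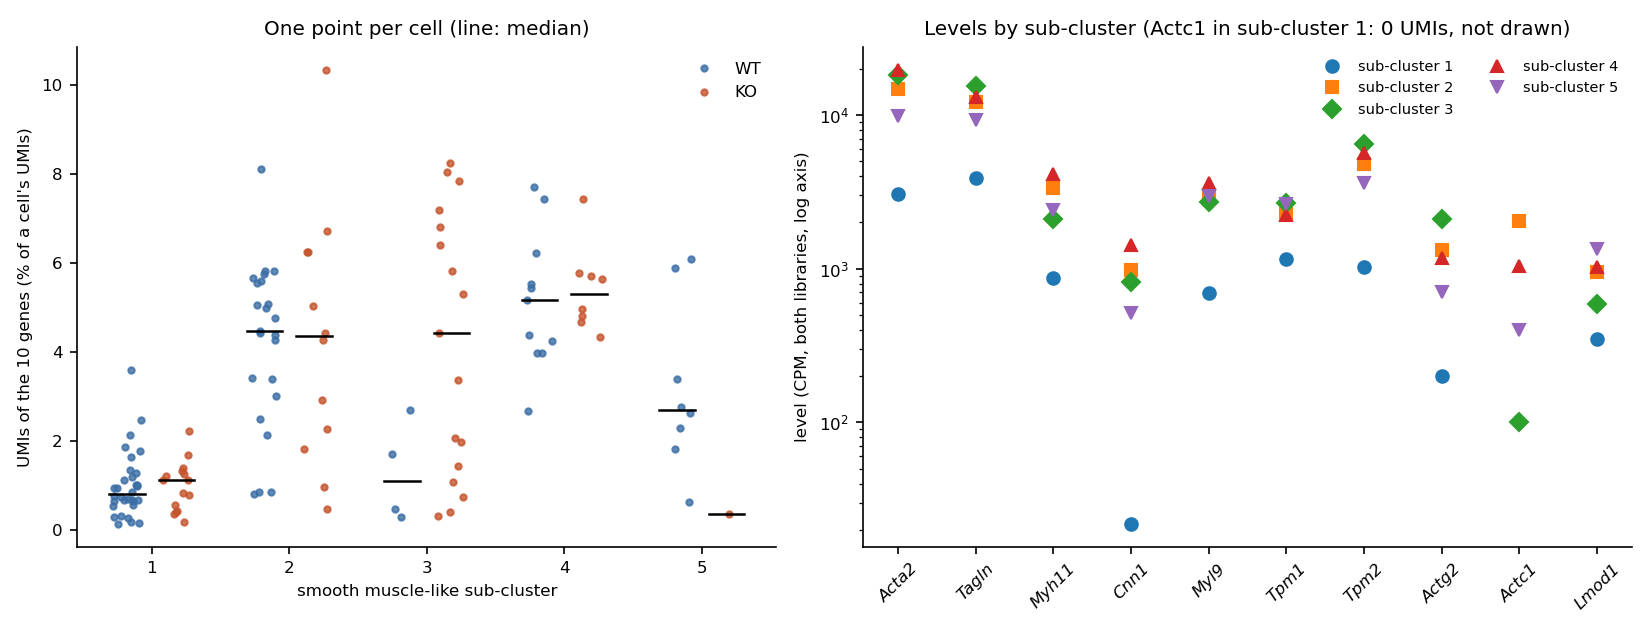
Left, share of each smooth muscle-like cell's UMIs that belongs to the 10 genes (percent), by sub-cluster and library, 1 point per cell with the median as a line; right, level of each gene (CPM, both libraries, log axis) by sub-cluster. Sub-cluster 1 is low for all 10 genes, and Actc1 is spread most, from 0 UMIs in sub-cluster 1 to 2034 CPM in sub-cluster 2.

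The comparison of KO with WT in smooth muscle-like cells asked which of the 10 genes differed at least 1.5-fold with intervals apart. Actg2 did so upward, with a KO to WT ratio of 1.93 (1.73 to 2.17) from 470 and 847 UMIs, and Actc1 downward, with 0.622 (0.544 to 0.711) from 600 and 348 UMIs. Among the 3096 genes that averaged 50 CPM or more, 4.81% were called higher and 6.1% lower by the same rule, beside 1 higher and 1 lower of the 10. The other 8 genes were not past it. Tpm2 (1.48, 1.39 to 1.56), Tagln (1.41, 1.36 to 1.46), Acta2 (1.33, 1.29 to 1.38) and Cnn1 (1.24, 1.08 to 1.43) lay above 1, Tpm1 (1.13) and Myl9 (1.11) slightly above, and Myh11 (0.918, 0.852 to 0.988) and Lmod1 (0.852, 0.742 to 0.977) below. Of these, Myh11, Tpm1, Myl9 and Cnn1 changed side under at least 1 other choice of cells or scaling. Within single sub-clusters Acta2 (0.856, 0.738 to 0.990) and Tpm2 (0.772, 0.591 to 1.00, both in sub-cluster 1) and Lmod1 (1.07 and 1.21 in sub-clusters 1 and 2) also lay on the other side, as did Tagln in sub-cluster 5 with its 1 KO cell. No direction is drawn for any of the 8. The median log2 ratio of the 10 was 0.24, against -0.05 over all genes tested. The summed level differed by a ratio of 1.29 (1.26 to 1.31) in the class. It was 24863 and 24708 CPM in cells gated by markers alone, a gate chosen after seeing the data. That gate took 40 WT and 27 KO cells, of which 24 and 16 were in the class. Its levels thus describe a different set of cells.

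These ratios moved with the make-up of the class. Sub-cluster 3, with 4 WT and 17 KO cells at median depths of 4547 and 13910 UMIs, held Acta2 at 3563 CPM in its WT and 19133 CPM in its KO cells. Without it, 0 of the 10 genes were past the rule: Actc1 stood at 1058 and 1063 CPM (ratio 1.00, 0.874 to 1.15), Actg2 at 816 and 1029.7 CPM (1.26, 1.09 to 1.46), and Acta2, Tagln and Tpm2 had ratios of 1.03, 1.09 and 1.09. Within sub-cluster 2 the ratio of Actc1 was 0.816 (0.693 to 0.958), and within sub-cluster 4 it was 1.64 (1.22 to 2.20), so its direction differed between them. The Actg2 ratio was 1.35 and 1.26 in these sub-clusters, but 0.723 (0.377 to 1.32) in sub-cluster 1, from 39 and 16 UMIs, and 0.196 (0.00487 to 1.15) in sub-cluster 5, with 1 KO cell. Without sub-cluster 2 the Actc1 ratio was 0.886 (0.684 to 1.15) and 4 genes, Acta2, Tagln, Tpm2 and Actg2, were called higher. Without sub-cluster 4, 5 were called. Sex-linked transcripts moved with the result as well. The 33 KO cells with Y-linked transcripts alone gave 0 calls against all 78 WT cells, with Actg2 at 1049.7 CPM (ratio 1.30, 1.13 to 1.51), Actc1 at 758 CPM (0.737, 0.631 to 0.860) and Acta2 at 11429 CPM (1.01, 0.965 to 1.05). The 10 KO cells with Xist alone, 7 of them in sub-cluster 3, gave 7 calls, with Acta2 at 24038 CPM (2.12, 2.03 to 2.20), Actg2 at 2743 CPM (3.41, 2.98 to 3.90) and Actc1 at 137 CPM (0.133, 0.0807 to 0.207). Their part in the difference between the libraries was not tested.

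**Figure D3:**
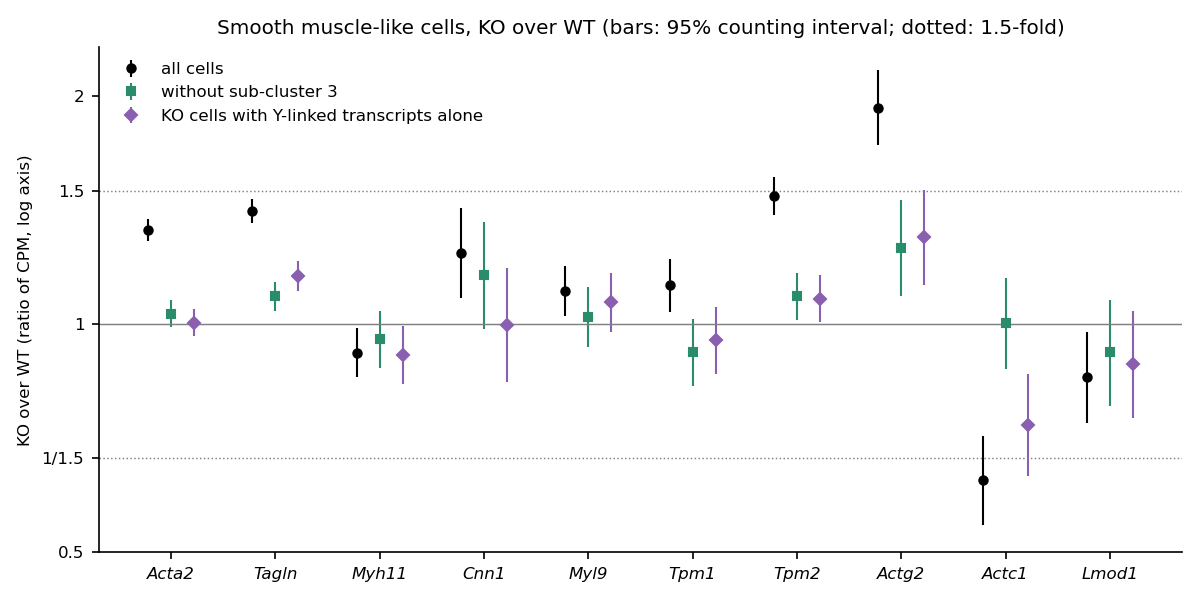
Ratio of KO to WT level (log axis, 95% counting intervals) for each gene in smooth muscle-like cells: all 78 WT and 53 KO cells (black), without sub-cluster 3 (green) and with the 33 KO cells that have Y-linked transcripts alone (purple); dotted lines mark 1.5-fold. Actg2 (1.93) and Actc1 (0.622) lie outside the lines with all cells, and no gene does in the other 2 sets.

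Other genes of the same machinery were read from 4 lists in smooth muscle-like cells, beside 4.81% of all genes called higher and 6.1% lower. The lists were not recomputed without sub-cluster 3. Of the thin and thick filament proteins and their anchors, 25 of 30 had at least 50 CPM, 3 were called higher and 1 lower, with a median log2 ratio of -0.01. Csrp2, a LIM-domain protein of smooth muscle, stood at 534 and 2218 CPM (ratio 4.15, 3.66 to 4.72), Itga5, the fibronectin receptor's alpha chain, at 80.5 and 189 CPM, and Pdlim7 at 190.1 and 301 CPM. Synpo2, an actin-bundling protein, was called lower, at 313 and 193 CPM. Pdlim3 (106 and 66.2 CPM) and Dmd, dystrophin (320.3 and 219 CPM), lay lower without passing. The 4 most abundant were Crip1 (4136 and 5273 CPM), Dstn (1995 and 1858 CPM), Cald1, caldesmon (1523 and 1728 CPM), and Ppp1r14a, an inhibitor of myosin phosphatase (1435 and 1428 CPM), none of which passed.

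Of the non-muscle counterparts, 14 of 15 were measured at that level, 3 were called higher and 0 lower, with a median of 0.20. Tpm4, a non-muscle tropomyosin, stood at 219 and 564 CPM (2.57, 2.09 to 3.19), Tagln2 at 310.0 and 533 CPM, and the light chain Myl12a at 459 and 739 CPM. Actb and Actg1, the cytoplasmic actins, stood at 5085 and 7578 CPM (ratio 1.49) and 1404 and 1888 CPM (1.34), and Myl6 at 5498 and 6383 CPM (1.16). Cnn2 had a ratio of 1.06, Myl12b of 0.701 and Tmod3 of 0.699. The coding sequences of Myl12a and Myl12b are near-identical, so their opposite ratios are uncertain. Of 14 regulators of smooth muscle transcription, 6 reached 50 CPM and 1, the SRF partner Fhl2, was called higher, from 12 UMIs (20.6 CPM) to 45 UMIs (82.7 CPM), and it reached 50 CPM through its KO level. Myocd, Tead1 and Gata6 had ratios of 1.05, 1.07 and 1.15, Foxf1 of 0.778 and Prrx1 of 0.728, and the median was 0.09. Of 28 genes of calcium handling and contraction control, 16 reached 50 CPM, 0 were called higher and 1 lower, with a median of -0.14. The one was Cacna1c, the pore of the L-type calcium channel, at 149 and 80.9 CPM (0.543, 0.369 to 0.789). Pde5a, which breaks down cyclic GMP, and Prkg1, the kinase it feeds, had ratios of 0.718 and 0.739, and Rock1 of 0.879. P2rx1, Rock2, Ramp1 and Rhoa had ratios of 1.79, 1.49, 1.33 and 1.19, all short of the rule.

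Pericyte-like cells (23 WT and 22 KO) were too few for the rule, and their levels are given alone. Acta2 had 5 UMIs in WT, in 3 cells (50.2 CPM, 16.3 to 117.1), and 320 UMIs in KO, in 9 cells (1729 CPM, 1544 to 1929). Tagln had 10 UMIs in WT (100.4 CPM, 48.1 to 185) and 455 in KO (2458 CPM, 2237 to 2694), and Tpm2 11 (110.4 CPM) and 171 (924 CPM). The libraries differed less in Myl9 (251 and 675 CPM), Myh11 (281 and 405 CPM), Tpm1 (341 and 367 CPM) and Lmod1 (3 and 9 UMIs), and Actg2 had 0 and 13 UMIs. The difference lay in few cells. In KO, 4 cells held 288 of the 320 Acta2 and 376 of the 455 Tagln UMIs, with 56, 81, 92 and 59 Acta2 UMIs each, and no WT cell had more than 2. Without the 4 highest cells of each library, Acta2 stood at 13.2 CPM (1 UMI) and 264 CPM (180.5 to 372), and Tagln at 52.8 CPM (14.4 to 135) and 651 CPM (516 to 812). The 4 KO cells were deep, from 13160 to 19357 UMIs against a KO class median of 7530.5. They carried the pericyte genes Higd1b (12 to 41 UMIs), Cox4i2 (13 to 30), Postn (67 to 96) and Notch3 (8 to 13), had 0 or 1 UMIs of Mustn1, which smooth muscle-like cells hold, and 0 of Cnn1, Actc1 and Cdh5. They also had 13, 7, 7 and 3 UMIs of Des, a muscle filament gene with at most 5 UMIs in a WT cell and at most 7 in the other KO cells, and 2 of the 4 had 4 and 9 UMIs of Actg2. Per UMI, Des was at 470 CPM (317 to 671) in the 4 and 445 CPM in the other KO cells. It was at 432 CPM in WT, so no difference in Des is read. In the 4 and the other KO cells, Cox4i2 was at 1300 and 1954 CPM and Notch3 at 674 and 940 CPM. Higd1b was at 1331 and 1575 CPM and Postn at 4856 and 4081 CPM. Xist alone was found in 3 of the 4 and Y-linked transcripts alone in 1, and in KO as a whole Tagln stood at 4062 CPM in the 9 cells of the first kind and 1122 CPM in the 5 of the second. Fewer or more cells of such a kind and a change within cells cannot be told apart with 1 library per group.

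**Figure D4:**
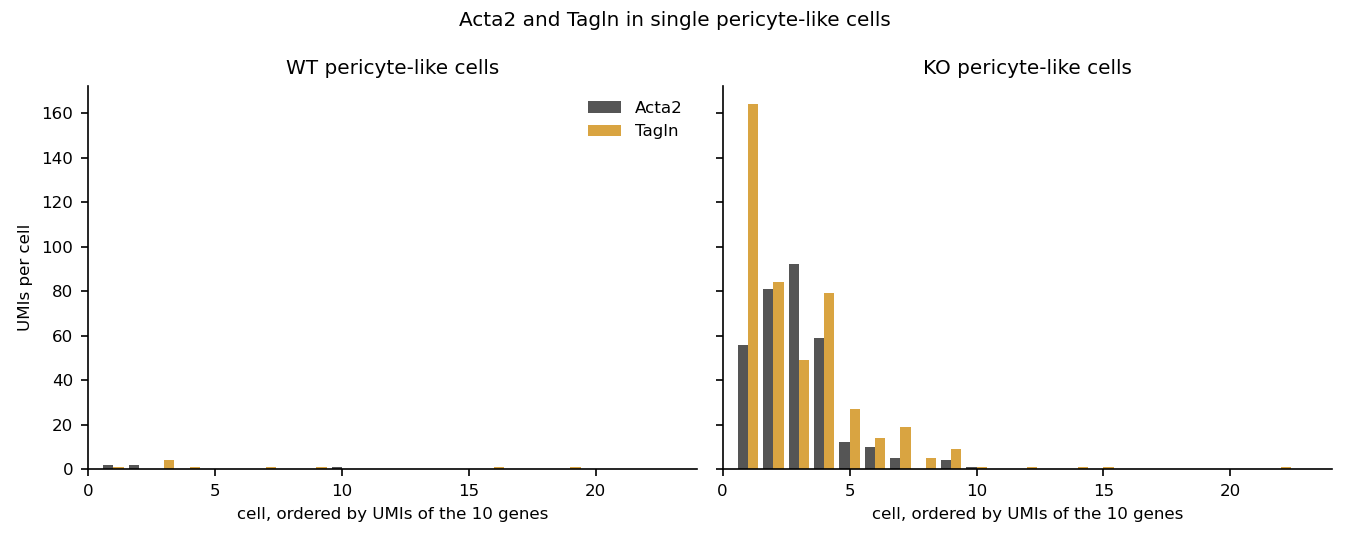
UMIs of Acta2 and Tagln in each pericyte-like cell (bars start at 0), with cells ordered by their UMIs of all 10 genes; 23 WT cells on the left and 22 KO cells on the right. In WT no cell exceeds 4 UMIs of either gene, and in KO 4 cells reach 56 to 92 Acta2 and 49 to 164 Tagln UMIs.

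Fibroblasts differed in Tagln. In alveolar fibroblast-like cells, lipid-bearing fibroblasts of the alveolar wall, Tagln stood at 297 CPM (245 to 357) and 967 CPM (845 to 1102). A UMI was found in 27 of 56 WT (48.2%) and 26 of 34 KO cells (76.5%), at median depths of 7479 and 6654 UMIs. With each cell thinned to 1500 UMIs these shares were 20.4% and 50%, with 2 and 6 cells left out as shallower. In alveolar type 2-like cells 4.65% of WT and 9.33% of KO cells had a Tagln UMI, at median depths of 17768 and 20077.5 UMIs, and 0.252% and 0.748% when thinned. Tpm1 was also higher in KO, at 289 CPM (237 to 348) and 462 CPM (379 to 558), a ratio of 1.60 (1.21 to 2.10). Acta2 stood at 76.2 and 68.5 CPM, Tpm2 at 42.0 and 34.2 CPM and Myl9 at 34.1 and 12.8 CPM, and Myh11 had 1 and 0 UMIs. Tagln was at 849 CPM (712 to 1005) in the 18 KO cells with Y-linked transcripts alone and 1153.5 CPM (890.3 to 1470.2) in the 6 with Xist alone, above the WT level in both. The class held under 50 KO cells, so no call was made.

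In adventitial fibroblast-like cells, matrix-making fibroblasts around larger vessels and airways, 4 of the 10 genes reached 50 CPM. Tagln was called higher, at 28.3 CPM (17.9 to 42.4) and 112 CPM (89.1 to 138) (ratio 3.95, 2.47 to 6.57), and Myl9 lower, at 90.9 CPM (71.4 to 114) and 47.9 CPM (33.5 to 66.3) (ratio 0.527, 0.343 to 0.795). Tagln reached the mean of 50 CPM through its KO level, so its call is a description. Of 2883 genes tested in the class, 4.96% were called higher and 6.21% lower. Tpm1 (136 and 150.3 CPM) and Tpm2 (71.2 and 69.1 CPM) were not past the rule. The Tagln UMIs lay in 7 of 69 WT and 16 of 50 KO cells, and 5 cells held 91.3% and 71.4% of them. Without the 5 cells of highest member share in each library, Tagln had 4 WT and 48 KO UMIs and Myl9 60 and 27. Tagln then averaged under 50 CPM and was not tested, and Myl9 was tested and not called. Their log2 ratios were then 3.83 and -0.91, against 1.98 and -0.93 with all cells. Myl9 was spread more evenly, over 36 WT and 18 KO cells. Tagln stood at 109 CPM in the 28 KO cells with Y-linked transcripts alone and at 162 CPM in the 14 with Xist alone.

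Endothelial cells gave few UMIs of the muscle genes. In general capillary-like cells (940 WT and 236 KO) Acta2 had 66 and 28 UMIs, or 7.02 and 11.9 per 100 cells, against 12.6 and 17.4 per 100 alveolar type 2-like cells. Tagln had 2.87 and 3.39 per 100 cells, against 5.15 and 13.4. Acta2 was seen in 6.60% of WT and 10.2% of KO cells (median depths 3858 and 5020.5 UMIs), against 10.9% and 14.6% of the deeper alveolar type 2-like cells. Per UMI the order was the other way, at 17.8 and 23.9 CPM against 7.14 and 8.62, so no order is read from either. Of the 10 genes 1, Tpm1, reached 50 CPM in this class and in aerocyte-like cells (the wide alveolar capillary cells), and it was not past the rule in either, with ratios of 1.09 (0.890 to 1.32) and 0.848 (0.661 to 1.08). In general capillary-like cells 1.95% of 3740 genes were called higher and 2.78% lower, and in aerocyte-like cells 2.47% and 2.36% of 3730. In aerocyte-like cells Tpm1 stood at 224 and 190 CPM, and Myh11 at 15.4 CPM (10.6 to 21.7, 33 UMIs in 30 cells) and 14.2 CPM (5.23 to 31.0). There Myh11 had 8.46 and 8.96 UMIs per 100 cells, against 1.63 and 2.99 in alveolar type 2-like cells. Per Acta2 UMI, WT aerocyte-like cells held 1.03 Myh11 UMIs (0.615 to 1.73) and WT smooth muscle-like cells 0.232 (0.219 to 0.245), a difference beyond counting error. In KO, 0.429 (0.135 to 1.19) and 0.160 (0.150 to 0.169) were within it. This was not particular to aerocyte-like cells. General capillary-like cells stood at 0.439 (0.274 to 0.690) in WT, also apart from muscle, and at 0.107 (0.0208 to 0.347) in KO, not apart. KO pericyte-like cells, at 0.234 (0.180 to 0.302), were apart from KO muscle as well.

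Arterial-like cells (89 WT and 25 KO) held 21 Tagln UMIs in WT, 10 of them in 1 cell. They held 0 in KO, where 3 counts would be 21.8 CPM. Acta2 had 14 and 1 UMIs. Venous-like cells (54 and 12) held 5 and 3 Acta2 and 2 and 1 Tagln UMIs, and lymphatic-like cells (3 and 7) 3 member UMIs in all.

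One endothelial group stood apart for Tagln, though not for Tagln alone. It was led by Igfbp3 and held 126 KO cells and 1 WT cell, so it has no WT level to compare with, and the group and the KO library cannot be told apart. Its summed endothelial markers stood at 14460 CPM. Tagln had 97 UMIs in 36 of its 126 KO cells (28.6%, 20.9 to 37.3), Acta2 36 UMIs in 22 cells (17.5%), Tpm2 28, Myl9 20 and Tpm1 78 UMIs, and Actc1 had 0. Tagln stood at 137 CPM (111 to 167), or 77.0 UMIs per 100 cells, against 3.39 in KO general capillary-like and 13.4 in the deeper KO alveolar type 2-like cells. Thinned to 1500 UMIs, 9.6% of its cells had a Tagln UMI, against 0.877% and 0.748%. The genes also stood in another proportion: 2.69 Tagln UMIs per Acta2 UMI (1.82 to 4.07), against 0.845 (0.818 to 0.872) in KO smooth muscle-like cells and 0.774 (0.561 to 1.06) in KO alveolar type 2-like cells. Other KO classes also held more Tagln than Acta2, with 1.42 (1.23 to 1.65) in pericyte-like, 4.94 (2.91 to 8.88) in adventitial fibroblast-like and 14.1 (8.51 to 25.1) in alveolar fibroblast-like cells, and 2.11 (1.40 to 3.23) in an unnamed cluster. For the other members, the 236 KO general capillary-like cells had 28 UMIs of Acta2, 7 of Tpm2, 3 of Myl9 and 138 of Tpm1. The 36 Igfbp3-led cells with Tagln all had a Cdh5 UMI, as had 85 of the 90 cells without. Acta2 was found in 13 of the 36 and in 9 of the 90. The members other than Tagln had 88 UMIs in the 36 cells and 91 in the 90. The cells with Tagln were deeper, with a median of 6340.5 UMIs against 5161.5. Their summed smooth muscle markers stood at 599 CPM, against 692 CPM in the 90 cells without, with 1 Notch3 UMI in either set. This sum cannot decide whether the cells held muscle RNA. Its list holds Mcam, the 1 listed gene with a UMI in the group's WT cell (673 CPM), and KO general capillary-like cells stood at 545 CPM. In the cells with Tagln, summed pericyte markers stood at 324 CPM, against 255 CPM, and endothelial markers at 13087 CPM, against 15176 CPM. Mustn1 had 5 UMIs in the cells with Tagln and 0 in the others, and Des 9 in each set. The part of these in the Tagln level was not tested. Tagln stood at 157 CPM in the 62 cells with Xist alone and 128 CPM in the 46 with Y-linked transcripts alone, with overlapping intervals (119.5 to 203 and 87.5 to 180.5).

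**Figure D5:**
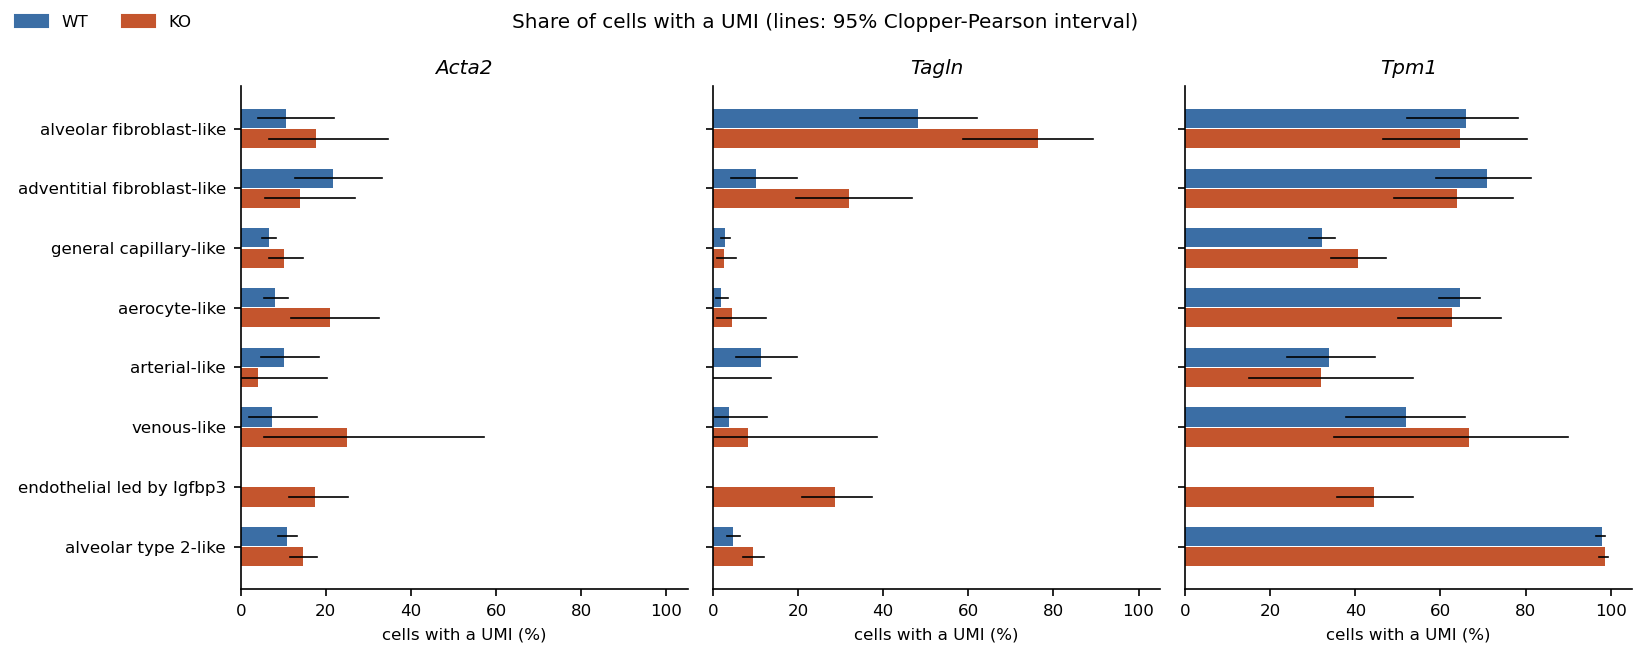
Share of cells with a UMI of Acta2, Tagln or Tpm1 (percent, bars from 0, lines are 95% Clopper-Pearson intervals) in fibroblast-like and endothelial classes and in alveolar type 2-like cells, not thinned; classes under 5 cells are left out. Tagln reaches 76.5% of KO alveolar fibroblast-like and 28.6% of Igfbp3-led KO endothelial cells, against 2.54% of KO general capillary-like cells.

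The genes outside the contractile lists whose levels followed the summed 10 most closely, over 18 groups of class and library with at least 20 cells, were Rcan2 (Pearson's r 0.94), Speg (0.94), Rbpms2 (0.92), Bdnf (0.92) and Hspb6 (0.92). The groups share 2 libraries and differ in depth, so this is a description. In smooth muscle-like cells Rcan2, a regulator of calcineurin, stood at 78.8 and 58.8 CPM, Speg, a muscle kinase, at 78.8 and 66.2 CPM, and Hspb6, a small heat shock protein of muscle, at 99.3 and 104.8 CPM. Rbpms2, an RNA-binding protein, stood at 70.2 and 130.5 CPM, and Bdnf, a neurotrophin, at 83.9 and 175 CPM. Of the 10 genes themselves, Acta2 had the highest r with the sum (0.96) and Actc1 the lowest (0.82). Each of the 10 is part of that sum. Acta2, at 11364 CPM in WT smooth muscle-like cells, weighs more in it than Actc1, at 1028 CPM.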

How the data were processed

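Each library came as a sparse matrix of UMI counts per gene and barcode, raw and not normalized, as deposited by the authors. The submitters' processing notes name Cell Ranger 3.0.1 and mm10, the labels' protocols name 3' v3 chemistry, and other steps are not given in the sources used here. Barcodes numbered 3482 in WT, with 25667220 UMIs, and 2196 in KO, with 17864581.

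Barcodes needed 500 genes and no more than 10% mitochondrial UMIs (2745 and 1326 passed, and 15.1% of WT and 30.5% of KO barcodes were over the mitochondrial limit). Scrublet then called 37 and 12 doublets, which were removed. Clustering used scanpy 1.11.5 (leidenalg 0.10.2, resolution 1, 30 components, 20 neighbors) on 1967 of 2000 variable genes, those of the contractile lists being left out. Clusters were named "-like" from markers: at least 3 in 10% of cells and 2-fold over the median cluster, with 1 or more among the top 10 genes. This scoring was settled after the clusters had been seen. Endothelial clusters were divided again. Clusters of low depth or led by other genes stayed unnamed.

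Levels are CPM of a class's summed UMIs per library, with exact Poisson intervals. Ratios have exact conditional binomial and shares exact Clopper-Pearson intervals (95%). A gene was called at 1.5-fold with intervals apart, if it averaged 50 CPM or more and its class had at least 50 cells in each library. The calling step was checked on simulated counts. Genes named were the 10 members, the 3 highest and 3 lowest ratios and 4 highest levels of each list, and the 5 genes most like the summed members (Pearson's r of log2 of CPM plus 10). Leading genes and markers of sub-clusters were picked after their values had been seen. The members and lists were chosen with earlier results of these data known. Calls were recomputed with other filters, thresholds, clusterings and cell sets.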

Additional observations from a re-analysis of the deposited data

Results flagged for a closer look

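An unnamed cluster of 71 WT and 57 KO cells with median depths of 1087 and 1257 UMIs, which entered no comparison, held Acta2 at 511 CPM (WT) and 491 CPM (KO) and Tagln at 278 and 1036 CPM. These levels are above those in alveolar type 2-like cells, at 7.14 and 8.62 CPM for Acta2 and 2.93 and 6.67 CPM for Tagln. Of its cells, 2 in WT and 6 in KO had at least 5 UMIs of members other than Tpm1 and held 89.1% and 91.3% of these UMIs, and 58 and 41 cells had none.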

How the results depend on the processing

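No paired analysis was possible because each group was 1 library, and for the same reason no replicate could be left out. Without individual sub-clusters, without the highest cells, without shared barcodes and the looser marker gate were chosen after seeing the data. In smooth muscle-like cells the count of genes called was 2, and it was 1 (Actg2) with limits of 200 genes and 20% mitochondrial UMIs and 1 (Actg2) as a mean over cells. It was 0 with KO cells of Y-linked transcripts alone, 7 with those of Xist alone, 2 without sub-cluster 1, 4 without sub-cluster 2, 0 without sub-cluster 3, 5 without sub-cluster 4 and 3 without sub-cluster 5 (Tpm2 in addition). Without sub-cluster 3 the log2 ratio of Actc1 was 0.0056, against -0.68, the one change of sign of a called gene. Of 170 member ratios under these settings, 110 moved by no more than the counting interval. Some of these could not or did not move at all. A minimum of 10 CPM affects calls alone, and clustering at resolution 2 gave the same 78 WT and 53 KO cells. Among genes not called, the log2 ratio changed sign for Myh11 (up to 0.19, with KO cells of Xist alone), Tpm1 (down to -0.12, without sub-cluster 3), Cnn1 (-0.0014, with KO cells of Y-linked transcripts alone) and Myl9 (-0.0047, without sub-cluster 1). Thinned to 1500 UMIs the count was also 2, but of Tpm2 and Actg2. With 1000 genes and 5% mitochondrial UMIs smooth muscle and pericytes formed 1 cluster, so no value was had. The log2 ratio of Actg2 was above 0 in every setting not confined to 1 sub-cluster. It ran from 0.33 without sub-cluster 3 to 1.77 with KO cells of Xist alone, both of them subsets of the class. Its ratio was under 1 within sub-clusters 1 and 5 (0.723 and 0.196).

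In the other classes 2 genes were called, both in adventitial fibroblast-like cells. The count was 0 with 1000 genes and 5% mitochondrial UMIs and 0 thinned, where that class was not tested. It was also 0 without the 5 highest cells, where Tagln fell under 50 CPM and was not tested. It was 3 with a minimum of 10 CPM, with Lmod1 lower in the same class. The cause of these changes was not tested beyond the cells left out. Without the 5 cells of highest member share, summed levels (WT and KO) were 30421 and 34860 CPM in smooth muscle-like, 892 and 1712 CPM in pericyte-like, 485 and 1158 CPM in alveolar fibroblast-like and 310.2 and 287 CPM in adventitial fibroblast-like cells, and 208.5 CPM in KO endothelial cells, against 230.9. The planned gate by marker UMIs alone left cells in the alveolar type 2-like class, at 403 and 345 CPM, and 1 cell or none elsewhere, as surfactant UMIs were in nearly every cell. The looser gate, which ignored surfactant and allowed 1 defining marker of each other class, gave 24863 and 24708 CPM for smooth muscle, 2004 and 3062 CPM for pericytes, 505 and 719 CPM for alveolar and 622 and 463 CPM for adventitial fibroblasts, and 272 and 308 CPM for endothelium. Its cells were not those of the classes. Of 40 WT and 27 KO cells gated as smooth muscle, 24 and 16 were in the smooth muscle-like class. Of 17 and 9 gated as pericytes, 7 and 4 were in the pericyte-like class. Of 151 and 54 gated as alveolar fibroblasts, 40 and 30 were in theirs. Depth limits the small classes: 3 counts are 30.1 CPM in WT pericyte-like cells.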
